A study of Mus musculus with 60 samples.

Results

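Npy1r and the other neuropeptide Y receptor genes were followed through sorted epithelial cells of the mouse gut. The genes described are Npy1r, Npy4r, Npy5r and the ligand gene Npy, taken by gene name, 4 of the 55357 genes in the deposited count table. Neuropeptide Y, peptide YY and pancreatic polypeptide form one peptide family that acts through Y receptors, which are G protein-coupled receptors that couple to Gi/o proteins and lower cyclic AMP. Neuropeptide Y is mainly a transmitter of neurons, enteric neurons among them, and peptide YY is a hormone of the enteroendocrine L cells of ileum and colon. In the gut epithelium the Y1 receptor, which Npy1r encodes, is known for restraining chloride and water secretion.

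The libraries came from 8-week-old Lgr5-2A-eGFP mice, in which green fluorescent protein is made together with Lgr5, the R-spondin receptor that marks crypt base stem cells. All groups share this allele, and strain, sex and the number of animals are not given in the sources used here. By GFP brightness the cells were split into a GFP-high, a GFP-intermediate and a GFP-negative fraction, each from the distal and proximal colon and from the distal, middle and proximal part of the small intestine, with 4 libraries in each of the 15 groups. Per the labels, a fraction held no fewer than 30000 cells in the colon and 50000 in the small intestine, and polyA RNA was sequenced. The fraction says how much GFP a cell held and not what cell it is, so GFP-negative cells can be any epithelial cell without the marker, or another cell that passed the gate. Fewer cells of a type and less RNA per cell cannot be told apart in such bulk libraries.

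The libraries held between 55411864 and 113917959 counts in total (median 81230235). A count of 3 corresponds to 0.0263 to 0.0541 CPM (counts scaled to a common library size) in these libraries, and values at or below that level are read as not detected above the counting floor. The counts are mostly even where they are low: 76.6% of all counts from 1 to 20 are even, so small counts may stand for fewer independent reads than they show. Without molecular identifiers in the reads, this floor and the counting intervals given for small counts cover counting error alone. Lgr5 averaged 203 to 544 CPM in GFP-high, 74.1 to 143 CPM in GFP-intermediate and 2.67 to 12.2 CPM in GFP-negative groups, so the fractions carry their labels. Leukocyte markers, 14 genes fixed as a list, summed to 3.28 to 56.8 CPM in GFP-high libraries and to 118 to 1857 CPM in GFP-negative libraries, so the GFP-negative epithelial libraries also held leukocyte RNA. Nothing in the sources used here says that libraries of a group came from separate animals, so the p-values measure the spread between these libraries.

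Of the 4 genes, Npy1r alone gave a signal that could be tested. Npy, which encodes neuropeptide Y itself, had 0 counts in all 60 libraries. Npy4r, the receptor that prefers pancreatic polypeptide, had 2 counts in 1 library, replicate 1 of the proximal colon GFP-negative cells, and 0 in the other 59 libraries. Both are at or below the floor of 3 counts per library everywhere. Npy5r, a receptor best known from feeding circuits of the hypothalamus, had 60 counts in 5 colon libraries. These were 18 and 4 counts in replicates 3 and 4 of distal colon GFP-high, 6 counts in replicate 3 of distal colon GFP-intermediate, 4 counts in replicate 4 of proximal colon GFP-high and 28 counts in replicate 3 of proximal colon GFP-negative cells. Every small intestinal library and the other colon libraries were at 0 for Npy5r, whose highest group mean was 0.0808 CPM. Npy1r had 50420 counts over 43 libraries and at most 7470 in one, and it was the 1 member that passed the filter on low counts. It had been chosen for its own sake: the title of the series names it, so its pattern is not independent evidence of anything the title says.

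In the mouse genome (GRCm38, GENCODE M21 annotation) Npy1r lies on chromosome 8 at 66697192 to 66706792 on the plus strand, with 2 annotated transcripts of 3 and 5 exons. Npy5r lies beside it on the minus strand at 66679965 to 66688128, so that the 2 genes point away from each other across 9063 bases. Npy4r lies on chromosome 14 at 34143992 to 34152489 and Npy on chromosome 6 at 49822710 to 49829507. No other annotated gene overlaps any of the 4. Per base of transcript the neighbours differed widely in the distal colon GFP-high libraries: Npy1r averaged 20.9 ± 4.18 RPKM (CPM per kilobase) and Npy5r 0.0240 ± 0.0365 RPKM (SD, n = 4 each).

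Npy1r was a colon gene in these libraries, and within the colon mainly a distal one. Its group means in descending order were 72.3 ± 14.4 CPM in distal colon GFP-high, 41.0 ± 4.64 CPM in distal colon GFP-intermediate, 17.3 ± 2.02 CPM in distal colon GFP-negative, 11.1 ± 5.91 CPM in proximal colon GFP-negative, 4.62 ± 2.39 CPM in proximal colon GFP-high and 2.81 ± 1.37 CPM in proximal colon GFP-intermediate cells (SD, n = 4 each). The small intestinal groups followed, from 0.483 ± 0.302 CPM in distal GFP-negative cells down to 0 in all 4 libraries of proximal GFP-intermediate cells. Along this order the first 2 steps were clear of overlap between libraries, as were the step between the 2 proximal colon groups GFP-negative and GFP-high and the step between colon and small intestine. Distal and proximal colon GFP-negative cells overlapped, proximal colon GFP-high and GFP-intermediate cells overlapped, and so did every neighbouring pair of small intestinal groups.

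**Figure D1:**
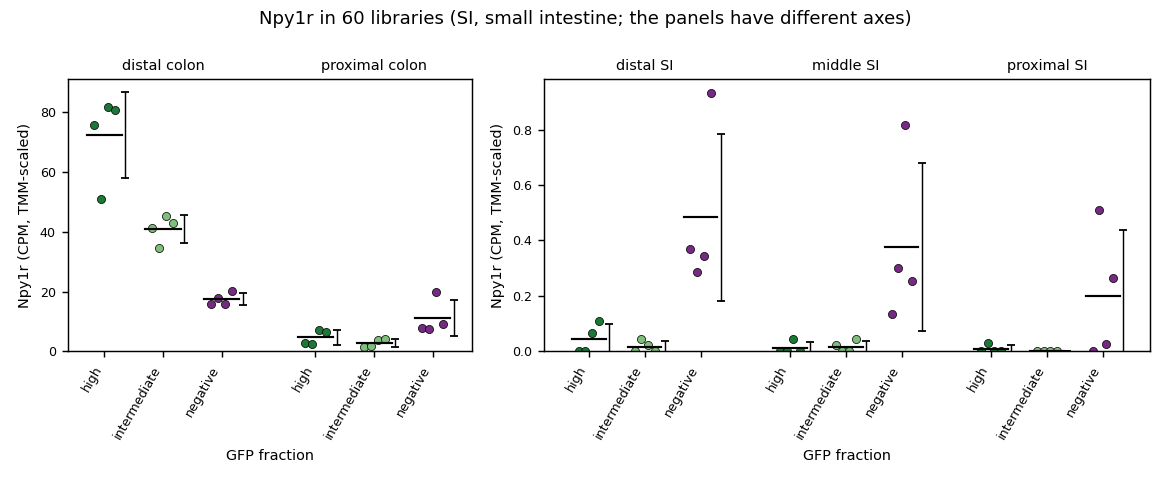
Npy1r level (CPM, linear axes) in each of the 60 libraries, by gut part and GFP fraction, with the colon on the left and the small intestine on the right on a scale of its own; points are libraries, horizontal lines group means and bars the SD (n = 4). The level steps down from GFP-high (72.3 CPM) over GFP-intermediate (41.0 CPM) to GFP-negative cells (17.3 CPM) in the distal colon, while in the proximal colon and in the small intestine GFP-negative cells hold the highest mean.

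In the distal colon, Npy1r was higher the more GFP the cells held. GFP-high libraries had 75.9, 51.0, 81.7 and 80.8 CPM, from 3917 to 7470 counts, and GFP-negative libraries had 15.7, 17.8, 15.9 and 20.03 CPM, from 1326 to 1775 counts. All GFP-high libraries lay above all GFP-negative libraries, and replicate 2 was the lowest of the GFP-high group. The difference was 2.06 ± 0.51 on the log2 scale (SE) with an adjusted p of 0.00202 over 23360 genes, and between libraries of the same number the ratio ran from 2.87 to 5.15. Of all genes tested, 25.1% were called in this comparison and 11.2% were called higher, so the call itself is a common one. GFP-intermediate libraries had 41.2, 34.5, 45.3 and 43.0 CPM and stood between the other two fractions without touching either. Without overlap, 4 of 4 same-numbered pairs have the higher level in the fraction with more GFP under any pairing. The differences of GFP-high from GFP-intermediate cells, 0.82 ± 0.50, and of GFP-intermediate from GFP-negative cells, 1.24 ± 0.50, did not pass the test (adjusted p = 0.359 and 0.114). A share of 1.81% of genes was called between GFP-high and GFP-intermediate cells and 9.80% between GFP-intermediate and GFP-negative cells. Both of these differences passed when the groups compared were fitted alone, at adjusted p of 0.00602 and 0.000204.

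In the proximal colon the order of the fractions was another one, with GFP-negative cells on top. GFP-high libraries had 2.81, 2.34, 7.04 and 6.31 CPM (204 to 780 counts), GFP-intermediate libraries 1.52, 1.73, 3.90 and 4.10 CPM (120 to 382 counts) and GFP-negative libraries 7.89, 7.58, 19.96 and 9.17 CPM (546 to 1728 counts). GFP-negative libraries lay above the others without overlap, if only by a small margin over GFP-high replicate 3. Replicates 3 and 4 held more Npy1r than replicates 1 and 2 in both GFP-high and GFP-intermediate cells. The difference of GFP-high from GFP-negative cells was -1.27 ± 0.50 with an adjusted p of 0.0576, which misses the threshold. With the replicate number as a block it was -1.31 with an adjusted p of 0.0268 and was called. Without replicate 3 of GFP-negative cells it was -0.83 with an adjusted p of 0.281. It was called without replicate 3 of GFP-high (-1.54, adjusted p = 0.0464), without replicate 4 of GFP-high (-1.46, 0.0489), without replicate 2 of GFP-negative cells (-1.42, 0.0493) and without all libraries numbered 4 (-1.54, 0.0456). All 4 same-numbered pairs had less Npy1r in GFP-high cells, which the lack of overlap gives under any pairing. The share of genes called was 25.3%, with 14.0% called lower.

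GFP-intermediate libraries of the proximal colon all held less Npy1r than GFP-negative ones, so 4 of 4 same-numbered pairs go this way under any pairing. The difference was -1.99 ± 0.52 with an adjusted p of 0.00485, where 15% of genes were called and 7.52% called lower. Without the libraries numbered 3 this was -1.74 with an adjusted p of 0.0729, and without replicate 3 of GFP-negative cells alone it was -1.54 with 0.0488. GFP-high exceeded GFP-intermediate cells in 4 of 4 same-numbered pairs, by ratios of 1.35 to 1.85, against 1.48 to 1.88 in the distal colon. The fitted difference of 0.72 ± 0.50 did not pass (adjusted p = 0.596), in a comparison that called 0.0428% of all genes.

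The high Npy1r level of proximal colon GFP-negative replicate 3, 19.96 CPM against 7.58 to 9.17 CPM in the other 3 libraries of that group, came together with markers of other cells. Its 16 enteroendocrine markers summed to 11580 CPM, against 3863 to 5266 CPM in the other 3 libraries, and its 14 leukocyte markers to 1177 CPM, against 151.8 to 462 CPM. The 10 enteric neuron markers summed to 50.5 CPM there and to 16.4 to 21.4 CPM in the others, with Vip at 0 throughout the group, and the 6 endothelial markers to 15.7 CPM and to 7.03 to 10 CPM. It is also the library with 28 counts of Npy5r. Crypt base stem cell markers were lowest in it, at 247 CPM against 335 to 486 CPM. The part of these cells in its Npy1r level was not tested.

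**Figure D2:**
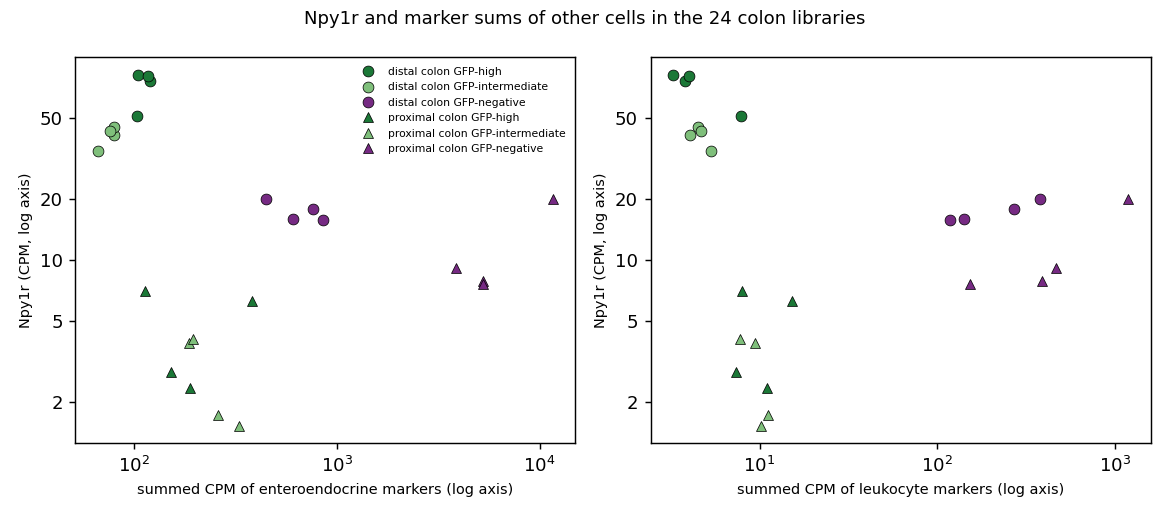
Npy1r (CPM) against the summed CPM of 16 enteroendocrine markers (left) and of 14 leukocyte markers (right) in the 24 colon libraries, all on log axes; circles are distal and triangles proximal colon, and the colour gives the GFP fraction. The distal colon GFP-high libraries with the most Npy1r hold 103.5 to 120.1 CPM of enteroendocrine and 3.28 to 7.83 CPM of leukocyte markers, and proximal colon GFP-negative replicate 3, at 19.96 CPM of Npy1r, has the highest sum of both.

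Enteroendocrine, leukocyte and enteric neuron markers were low where Npy1r was highest. In distal colon GFP-high libraries the enteroendocrine markers summed to 103.5 to 120.1 CPM, against 448 to 859 CPM in GFP-negative libraries, and the leukocyte markers to 3.28 to 7.83 CPM, against 118 to 377 CPM. The enteric neuron markers summed to 1.04 to 1.90 CPM, against 5.87 to 9.43 CPM in GFP-negative libraries, and Prph, Stmn2 and Vip were at 0 in every GFP-high library of the distal colon. The endothelial, glial and surface marker sums overlapped between these fractions. The 6 endothelial markers summed to 8.54 to 14.9 CPM in GFP-high and 10.2 to 18.5 CPM in GFP-negative libraries, with Cdh5, Emcn, Kdr and Tie1 at 0 in GFP-high libraries. The 4 enteric glia markers summed to 2.29 to 2.73 CPM in GFP-high and 2.13 to 3.48 CPM in GFP-negative libraries, and the 12 surface colonocyte and enterocyte markers to 4040 to 6150 CPM in GFP-high and 3597 to 9666 CPM in GFP-negative libraries. In the proximal colon these surface markers summed to 3096 to 6648 CPM in GFP-high and to 9982 to 10830 CPM in GFP-negative libraries, without overlap, and their part in the Npy1r values was not tested.

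Distal colon cells held more Npy1r than proximal colon cells in both fractions with GFP. In GFP-high cells the difference was 3.97 ± 0.56 (adjusted p = 5.45e-07), with ratios of 11.6 to 27.0 between same-numbered libraries, in a comparison that called 7.80% of all genes and 3.74% as higher. GFP-intermediate cells gave 3.86 ± 0.56 (adjusted p = 9.27e-07) and ratios of 10.5 to 27.1, with 7.34% of genes called and 3.27% called higher. In both fractions all distal libraries lay above all proximal libraries. GFP-negative cells differed by 0.64 ± 0.50 with an adjusted p of 0.467, where 13.6% of genes were called. In 3 of 4 same-numbered pairs the distal library was higher, and in the pair numbered 3 the ratio was 0.795.

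The difference between the fractions itself depended on the colon part. The excess of GFP-high over GFP-negative cells was larger by 3.33 ± 0.72 in the distal than in the proximal colon (adjusted p = 0.0103), and the same-numbered libraries gave 3.76, 3.22, 3.87 and 2.55. Of all genes, 0.616% were called in this interaction and 0.360% in this direction. Several alternatives lost this call. Without proximal colon GFP-negative replicate 3 the value was 2.89 with an adjusted p of 0.0514. It was 3.18 (0.06), 3.41 (0.0627) and 3.08 (0.198) without the libraries numbered 1, 2 and 3, and 3.34 (0.0617) in the DESeq2 Wald test.

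In the small intestine Npy1r was near the floor, and what there was lay in the GFP-negative cells. In the distal part GFP-high libraries had 0, 0, 6 and 8 counts and GFP-negative libraries 30, 20, 30 and 64 counts. The middle part had 0, 0, 4 and 0 counts in GFP-high and 10, 22, 46 and 18 counts in GFP-negative libraries. In the proximal part these were 0, 2, 0 and 0 counts and 0, 26, 2 and 18 counts, with overlap. Ratios of the summed counts, scaled by library size and given as GFP-high over GFP-negative, were 0.0928 (95% exact interval 0.0495 to 0.161), 0.0349 (0.00931 to 0.0922) and 0.042 (0.00494 to 0.161) in the distal, middle and proximal part. Turned to GFP-negative over GFP-high, these intervals were 6.22 to 20.2, 10.8 to 107 and 6.23 to 203. All of these counts are even, and with every count halved the intervals widened to 4.97 to 27.8, 7.52 to 244 and 3.87 to 981. GFP-high was called lower in all 3 parts, with adjusted p of 0.000186, 5.49e-05 and 0.00238, where 52.0%, 48.3% and 47.1% of genes were called and 26.2%, 25.6% and 24.6% were called lower. With the newer quasi-likelihood method the proximal part had an adjusted p of 0.0669.

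The same GFP-negative libraries of the small intestine were rich in markers of other cells. The leukocyte markers summed to 19.1 to 56.8 CPM in GFP-high libraries, against 233 to 1857 CPM in GFP-negative libraries, and the enteroendocrine markers to 71.4 to 231.6 CPM in GFP-high libraries, against 454.5 to 1029 CPM in GFP-negative libraries. Enteric neuron markers stayed at 0.515 to 1.085 CPM in GFP-high libraries, against 0.703 to 3.79 CPM in GFP-negative libraries, with Vip at 0 in both. The surface colonocyte and enterocyte markers summed to 1427 to 2571 CPM in GFP-high libraries, against 9612 to 16700 CPM in GFP-negative libraries. The part of these cells in the Npy1r counts was not tested. The difference of GFP-high from GFP-negative cells was larger in the distal colon than in the distal, middle and proximal small intestine, by 5.47 ± 0.92, 6.81 ± 1.08 and 6.46 ± 1.27 (adjusted p = 1.13e-05, 4.56e-06 and 0.000125). The sizes rest on few counts, since the GFP-high groups of the small intestine held 14, 4 and 2 counts in all, and the middle part's own difference ran between -7.18 and -4.40 with libraries left out. These 3 tests were added after the values had been seen, and 20.5%, 17.6% and 20.3% of genes were called in them.

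Colon cells held more Npy1r than small intestinal cells in each fraction. In GFP-negative cells, where both sides had counts, the mean over both colon parts exceeded the mean over the 3 small intestinal parts by 5.43 ± 0.37 (adjusted p = 9.35e-18), with 50.5% of genes called and 28.1% called higher. All 8 colon libraries, at 7.58 to 20.03 CPM, lay above all 12 small intestinal libraries, at 0 to 0.932 CPM. GFP-high and GFP-intermediate cells were called higher in colon as well (adjusted p = 1.71e-22 and 1.12e-21), where 42.2% and 44.1% of genes were called and 20.9% and 22.1% called higher. Their small intestinal libraries had at most 8 counts, so the fitted size of the difference is not given. Within the small intestine, distal GFP-negative cells did not differ from proximal ones by the test (1.35, adjusted p = 0.162, 15.6% of genes called; 2.48 and 0.038 without the libraries numbered 2), and in GFP-high cells both parts were too near the floor to compare.

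Of the family members outside the 4 genes, the ligand Pyy and the receptor Npy2r had counts in most libraries. Pyy encodes peptide YY and Npy2r the Y2 receptor, which prefers the truncated form of that peptide. Ppy, the gene of pancreatic polypeptide, had counts in 15 libraries, at most 98, and Npy6r, a further Y receptor gene, had 0 counts in all 60. Pyy had counts in 59 libraries.

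In all 5 gut parts Pyy was lower in GFP-high cells. GFP-high and GFP-negative groups averaged 11.4 ± 2.09 and 52.9 ± 18.1 CPM in the distal colon, 4.15 ± 3.92 and 21.3 ± 8.35 CPM in the proximal colon, and 1.74 ± 1.02 and 41.2 ± 14.4 CPM in the distal small intestine (SD, n = 4 each). In the middle and proximal small intestine GFP-high groups averaged 0.535 and 0.0617 CPM and GFP-negative groups 13.4 and 1.66 CPM. The differences were -2.22 ± 0.52, -2.36 ± 0.53, -4.57 ± 0.59, -4.61 ± 0.60 and -4.75 ± 0.74 in this order, with adjusted p from 3.69e-09 to 0.00113. In the proximal colon the libraries overlapped, since GFP-high replicate 4 had 9.75 CPM and GFP-negative replicate 4 had 8.83 CPM. Between distal and proximal colon Pyy was called higher in GFP-intermediate cells (1.75 ± 0.52, adjusted p = 0.0252), a call that was lost in 8 of the 12 alternatives that left out libraries. GFP-high and GFP-negative cells gave 1.45 ± 0.52 and 1.31 ± 0.51 and were not called (adjusted p = 0.076 and 0.0802). In GFP-high cells it was called without proximal colon GFP-high replicate 4 (2.32, adjusted p = 0.00363). Both Pyy and Npy1r were lower in GFP-high cells of the small intestine, and in the distal colon GFP-high cells held more Npy1r and less Pyy than GFP-negative cells.

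**Figure D3:**
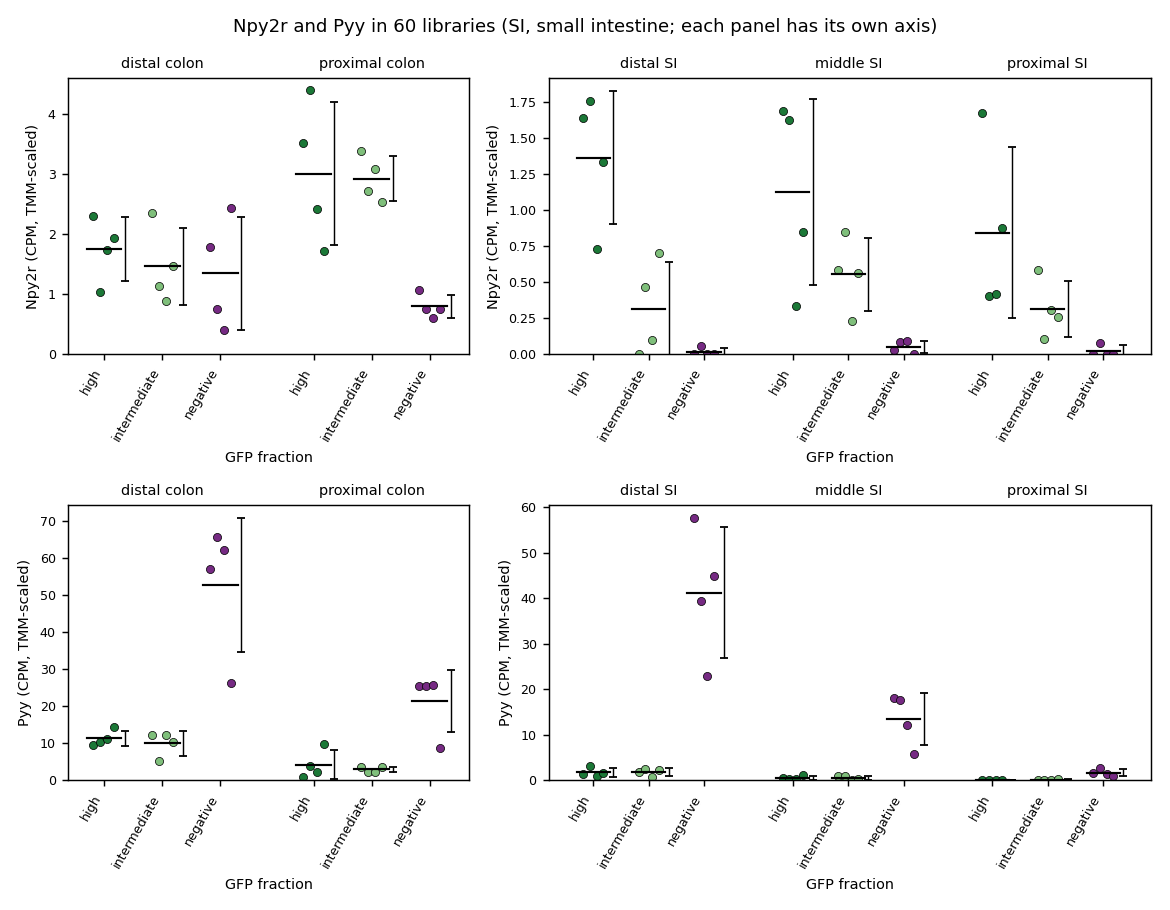
Npy2r (top) and Pyy (bottom) levels (CPM, linear axes, each panel on its own scale) in all 60 libraries by gut part and GFP fraction; points are libraries, lines group means and bars the SD (n = 4). The mean of Pyy is highest in GFP-negative cells of every part (52.9 CPM in the distal colon), and that of Npy2r is highest in GFP-high cells of every part (3.00 CPM in the proximal colon).

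Npy2r was low throughout and followed the fractions the other way round in the small intestine. GFP-high libraries of the distal part had 128, 140, 66 and 98 counts, against 0, 4, 0 and 0 counts in GFP-negative libraries. In the middle part these were 119, 104, 30 and 90 counts in GFP-high and 2, 6, 5 and 0 counts in GFP-negative libraries, and in the proximal part 102, 28, 30 and 59 counts and 0, 4, 0 and 0 counts. No GFP-high library overlapped a GFP-negative one in any of the 3 parts. Scaled ratios of GFP-high over GFP-negative counts were 103 (95% exact interval 40 to 380), 22.1 (12.7 to 41.9) and 52.9 (20.4 to 196), and GFP-high was called higher each time (adjusted p = 3.02e-07, 2.53e-05 and 6.87e-06), as were 25.7%, 22.7% and 22.5% of all genes. In the distal and proximal part the GFP-negative sum is 4 counts in 1 library, replicate 2, so the ratios there are loosely fixed, and the fitted differences reached 9.65 and 9.34 with libraries left out. Turned to GFP-negative over GFP-high, the 3 intervals were 0.00263 to 0.025, 0.0239 to 0.0785 and 0.00511 to 0.0491. With every count halved they widened to 0.00117 to 0.0355, 0.0193 to 0.102 and 0.00225 to 0.0697. Npy1r was called lower in the same 3 comparisons.

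In the colon, Npy2r was called higher in GFP-high cells of the proximal part, where 11.3% of genes were called higher and GFP-high libraries had 3.51, 4.39, 2.41 and 1.71 CPM and GFP-negative libraries 1.06, 0.750, 0.601 and 0.747 CPM. The groups did not overlap, and the difference was 1.92 ± 0.73 with an adjusted p of 0.0449. That call was lost without the libraries of any 1 replicate number (adjusted p = 0.0646 to 0.177) and without 7 of the 8 single libraries of these groups (0.0596 to 0.109). GFP-intermediate cells had 2.92 ± 0.379 CPM and differed from GFP-negative cells by 1.88 ± 0.73, with an adjusted p of 0.0721 and of 0.0473 with the replicate block. In the distal colon GFP-high, GFP-intermediate and GFP-negative cells had 1.75 ± 0.534, 1.46 ± 0.640 and 1.34 ± 0.936 CPM (SD, n = 4 each), and the difference of GFP-high from GFP-negative cells did not pass the test (0.38 ± 0.70, adjusted p = 0.752). Distal and proximal colon did not differ in any fraction by the test (adjusted p = 0.565 to 0.65), while GFP-intermediate cells fitted alone gave -0.998 with an adjusted p of 0.0244.

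Per kilobase, the 2 receptors stood in different proportions along the gut in GFP-high cells. In distal colon GFP-high cells Npy1r had 20.9 ± 4.18 RPKM and Npy2r 0.517 ± 0.158 RPKM. In proximal colon GFP-high cells the levels were 1.34 ± 0.692 RPKM for Npy1r and 0.888 ± 0.351 RPKM for Npy2r, and in distal small intestinal GFP-high cells 0.0127 ± 0.0155 RPKM for Npy1r and 0.404 ± 0.136 RPKM for Npy2r (SD, n = 4 each). In distal small intestinal GFP-negative cells Npy1r was the higher one, at 0.140 ± 0.0874 RPKM. Npy2r had 0.00421 ± 0.00841 RPKM there, from 1 library with 4 counts.

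**Figure D4:**
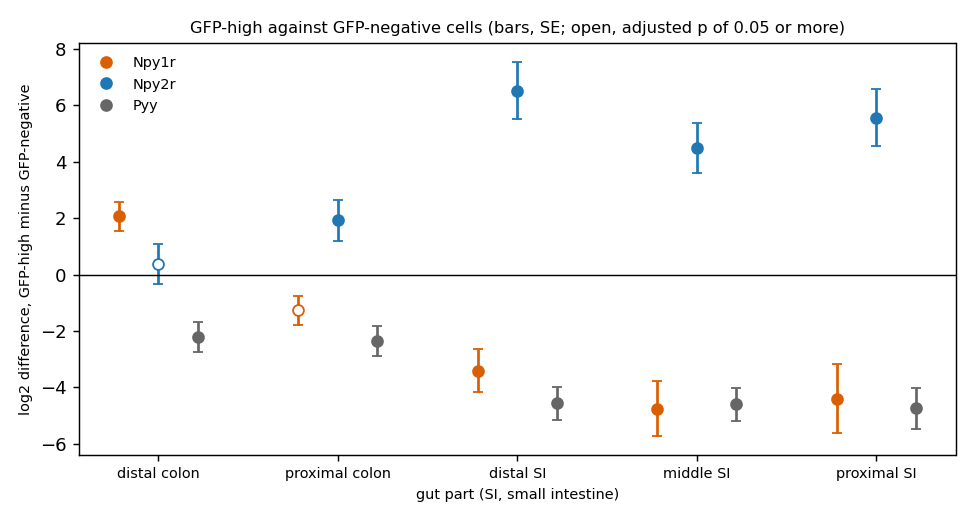
Difference of GFP-high from GFP-negative cells (log2, y axis) of Npy1r, Npy2r and Pyy in each of 5 gut parts (x axis), with bars of 1 SE from 4 libraries a group; filled points had an adjusted p below 0.05 and open points did not. Npy1r lies above 0 in the distal colon (2.06) and below 0 in the small intestine, where Npy2r lies above 0, and Pyy lies below 0 in all 5 parts.

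Genes that make, cut and read such peptides were taken from lists of textbook members. Of 6 genes of peptide hormone processing, 4 were lower and 0 higher in the GFP-high cells of both colon parts, set against GFP-negative cells, where 13.9% and 14.0% of all genes were called lower in the distal and proximal part. They were the carboxypeptidase Cpe, the prohormone convertase 1 inhibitor Pcsk1n, the convertase 2 chaperone Scg5 and the amidating enzyme Pam. Cpe averaged 5.41 ± 1.5 CPM in GFP-high and 32.9 ± 8.40 CPM in GFP-negative cells of the distal colon, and 4.82 ± 2.07 and 82.6 ± 31.5 CPM in those of the proximal colon (SD, n = 4 each), with differences of -2.61 ± 0.33 (adjusted p = 6.34e-08) and -4.10 ± 0.35 (1.6e-12). The list's median difference was -2.72 in the distal and -3.25 in the proximal colon, against -0.03 and -0.04 over all genes. The neuroendocrine marker Chga moved with it, by -3.32 ± 0.48 and -5.55 ± 0.53 (adjusted p = 6.36e-07 and 2.35e-11).

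Peptidases that act on neuropeptide Y family peptides were nearly all lower in GFP-high cells of the small intestine, while in the colon the calls went both ways. In the small intestine 8, 8 and 7 of 8 were lower in GFP-high cells of the distal, middle and proximal part when set against GFP-negative cells, and 0 were higher, where 26.2%, 25.6% and 24.6% of all genes were lower. In each colon part 2 were higher and 2 lower, where 11.2% and 11.3% of all genes were higher and 13.9% and 14.0% lower in the distal and proximal part. The colon counts were unstable. Without the libraries numbered 3 none was lower in either part, without those numbered 1 none was lower in the proximal and 1 in the distal part, and with only the groups compared 4 were lower in the distal part. Whether the list differed between colon and small intestine was not tested. Dpp4, the dipeptidyl peptidase that removes the first 2 residues of peptide YY, averaged 145 ± 14.2 CPM in GFP-high and 89.4 ± 20.5 CPM in GFP-negative cells of the distal colon (0.70 ± 0.18, adjusted p = 0.00334), and it was also higher in the proximal colon (0.89 ± 0.19, 0.000214). Without the libraries numbered 3 the distal value was 0.65 with an adjusted p of 0.0615. Mme, the endopeptidase neprilysin, averaged 15.5 ± 9.10 CPM in GFP-high and 1.43 ± 0.815 CPM in GFP-negative cells of the distal colon (3.44 ± 0.52, adjusted p = 1.92e-06), and in the distal small intestine it was lower by -3.40 ± 0.50 (1.1e-07). In the proximal colon its difference of 1.96 ± 0.51 (adjusted p = 0.00312) was 1.195 with an adjusted p of 0.0929 without GFP-high replicate 1. Between distal and proximal colon GFP-high cells 3 peptidases were higher, and 1 without the libraries numbered 4, where 3.74% of all genes were higher and 4.05% lower. They were Ace by 2.24 ± 0.35 (adjusted p = 3.07e-06), Mme (1.85 ± 0.48, 0.00771, and 1.39 with 0.0878 without distal colon GFP-high replicate 1) and Anpep. The meprin subunit gene Mep1a was lower by -1.62 ± 0.30 (0.000115).

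Genes of Gi/o signalling, through which Y receptors act, were mostly lower or not called in GFP-high cells. Of 22 tested, 10 were lower in each colon part, where 13.9% of all genes were lower in the distal and 14.0% in the proximal part. Without the libraries numbered 3 these were 4 in the distal and 5 in the proximal part, and 6 were lower in the distal part without those numbered 2 and in the proximal part with only the groups compared. The adenylyl cyclase gene Adcy4 was higher in the distal colon (adjusted p = 0.0418), where 11.2% of all genes were, but no gene of the list was higher there with no filter, with only the groups compared, with the newer quasi-likelihood method, with halved counts or without the libraries numbered 1, 2 or 4. The adenylyl cyclase Adcy7 differed by -3.12 ± 0.52 in the distal and -4.72 ± 0.55 in the proximal colon (adjusted p = 8.28e-06 and 5.29e-09) and the G protein subunit Gnao1 by -1.74 ± 0.39 and -2.55 ± 0.40 (0.000667 and 2.13e-06). The leukocyte marker sums given above for the same groups moved the same way, and their part in these differences was not tested. The medians over the list were -0.65 in the distal and -0.66 in the proximal colon, against -0.03 and -0.04 over all genes. Gnai1, which encodes a Gi alpha subunit, was higher in colon than in small intestine among GFP-high cells, by 4.75 ± 0.33 (adjusted p = 5.77e-18), with 26.2 ± 2.43 CPM in the distal and 21.9 ± 4.21 CPM in the proximal colon, against 0.370 to 3.60 CPM in the small intestinal groups. Between distal and proximal colon GFP-high cells 2 of 22 were called, where 7.80% of all genes were called and 4.05% were lower. Both were lower in the distal part, the adenylyl cyclase Adcy8 (-4.57 ± 0.52, adjusted p = 3.24e-09) and Gnao1. Only 1 was lower without the libraries numbered 2.

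Other receptors of gut hormones were mostly not called in the distal colon. Of 21 tested, 2 were called in distal colon GFP-high against GFP-negative cells and both were lower, where 25.1% of all genes were called and 13.9% were lower. They were the somatostatin receptors Sstr1 (-2.20 ± 0.59, adjusted p = 0.00419) and Sstr5, whose call was lost without distal colon GFP-high replicate 1 (-2.90, adjusted p = 0.0504). Between distal and proximal colon GFP-high cells 1 was called, the alpha-2A adrenergic receptor gene Adra2a, which was lower in the distal part, as were 4.05% of all genes (17.6 ± 4.29 against 49.7 ± 11.0 CPM, -1.49 ± 0.25, adjusted p = 1.73e-05). In the proximal colon 6 were lower in GFP-high cells and 1 was higher, where 14.0% of all genes were lower and 11.3% higher. The higher one was Calcrl, the receptor partner of adrenomedullin and calcitonin gene-related peptide. None was higher there without the libraries numbered 2, while 2 were with the replicate block and 3 with the newer quasi-likelihood method. In the interaction of colon part with fraction 1 list member was called, where 0.616% of all genes were called and 0.360% were higher. This was the glucagon-like peptide 1 receptor gene Glp1r, by 4.89 ± 1.03 (adjusted p = 0.00809). It averaged 0.508 ± 0.492 CPM in GFP-high and 23.0 ± 14.7 CPM in GFP-negative cells of the proximal colon, against 0.585 ± 0.384 and 0.893 ± 0.696 CPM in those of the distal colon. Its interaction had an adjusted p of 0.374 without the libraries numbered 3, and 0.132 when the groups compared were fitted alone.

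In the small intestine 3 or 4 receptors of that list were higher and 6 or 7 lower in GFP-high cells, where 22.5% to 25.7% of all genes were higher and 24.6% to 26.2% lower. With only the groups compared 1 was higher in the distal and 2 in the proximal part. Adra2a was higher in all 3 parts, by 2.83 ± 0.26, 2.49 ± 0.26 and 2.65 ± 0.26 in the distal, middle and proximal part (adjusted p = 4.8e-13, 1.58e-11 and 3.25e-12), and Glp1r and the somatostatin receptor gene Sstr2 were lower in all 3. Like Npy1r, 10 of the 21 were higher in colon than in small intestine among GFP-high cells, where 20.9% of all genes were higher and 21.3% lower, among them Sstr2 (6.53 ± 0.33), the vasoactive intestinal peptide receptor gene Vipr2 (5.06 ± 0.34) and Calcrl (3.31 ± 0.25), with adjusted p of 2.44e-23, 3e-18 and 1.51e-16, and 2 were lower, Adra2a and the glucagon receptor gene Gcgr.

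The genes whose group means were most like those of Npy1r were sought among genes with a mean of at least 10 CPM in at least 1 of the 15 groups, by Pearson's r of log2(mean CPM + 0.5). These r are descriptions, since all genes share the same libraries and depth scaling, and Npy1r itself is far from 0 only in the colon. Over all 15 groups, among 11179 genes, the 10 were Dlk1 (r = 0.987), an unnamed gene, Syn2 (0.978), Hmcn1, Nxpe4, Mtmr10, Ror1, Sike1, St6galnac4 and Mptx1 (0.967). Dlk1, a Notch-related transmembrane protein, averaged 24.6, 20.6 and 20.6 CPM in GFP-high, GFP-intermediate and GFP-negative cells of the distal colon, and 2.96, 2.84 and 5.51 CPM in those of the proximal colon. The order of the distal colon fractions was not shared by all. From GFP-high to GFP-negative cells there, Nxpe4 stepped down like Npy1r (154, 120 and 73.3 CPM), while Mptx1 rose (3051, 4358 and 8922 CPM). With a pseudocount of 1 CPM 8 of the 10 stayed among the first 10, and by Spearman's rho 3.

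Over the 6 colon groups alone, among 11167 genes, the order of the fractions counted for more. The 10 were Atp10a (r = 0.995), Ceacam10 (0.987), Trf (0.970), Hspa12a, Maged2, Utp20, Gm47173, Syn2, Camsap2 and Apobec2 (0.949). The likeness is in shape and not in size. In the colon groups Hspa12a had 0.926 to 3.17 CPM and Gm47173 0.0277 to 0.350 CPM, and both reached the minimum of 10 CPM only in GFP-negative cells of the small intestine, where their highest group means were 37.3 and 12.2 CPM. Atp10a, a phospholipid-transporting ATPase, averaged 13.9, 8.34 and 3.82 CPM in distal colon GFP-high, GFP-intermediate and GFP-negative cells, and 0.331, 0.123 and 2.06 CPM in the proximal ones, so that it too was highest in GFP-negative cells of the proximal colon. Trf, which encodes the iron carrier transferrin, averaged 257, 144 and 34.8 CPM in the distal and 2.76, 1.56 and 4.18 CPM in the proximal groups. Ceacam10 and Maged2 followed the same order within a much smaller range, 30.5 to 72.1 CPM and 21.6 to 33.7 CPM. All 10 of the list stayed with a pseudocount of 1 CPM. By Spearman's rho 7 were among the first 10, a number that depends on the order of tied genes. Utp20 and Gm47173 fell to rank 14 (rho = 0.943), and the others of the list were tied at the highest rho, 1.0000. Syn2, which encodes a synaptic vesicle protein, was on both lists, with 19.8, 17.4 and 14.2 CPM in the distal and 3.21, 2.37 and 5.03 CPM in the proximal groups.

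**Figure D5:**
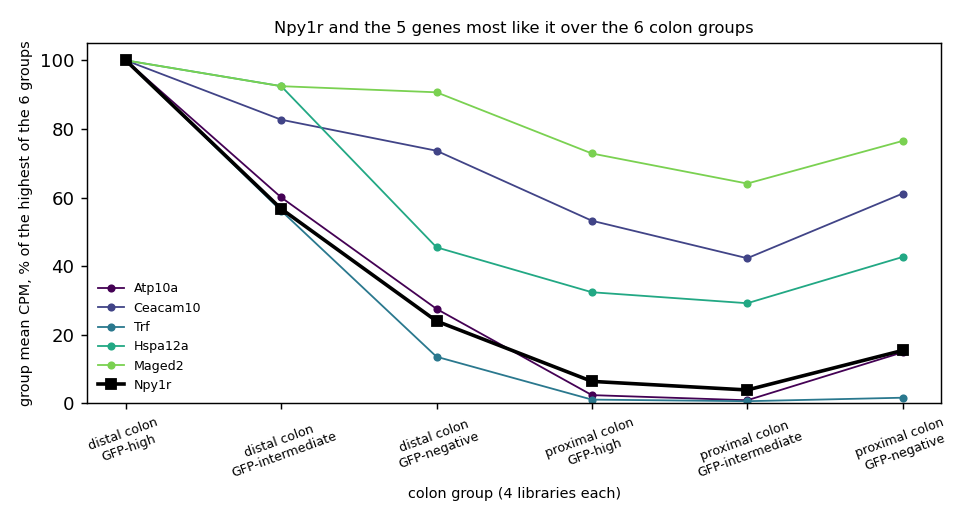
Group mean CPM of Npy1r (black squares) and of the 5 genes most like it over the 6 colon groups, each as a percentage of its highest group (y axis, linear); the x axis gives the groups, each a mean of 4 libraries. Npy1r and Atp10a run close together, both stepping down over the fractions of the distal colon and lowest in proximal colon GFP-intermediate cells, while Maged2 and Ceacam10 keep the order within a narrow range.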

How the data were processed

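Sorted gut cells of Lgr5-2A-eGFP mice were profiled by polyA RNA-seq in 60 libraries, 4 in each of 15 groups. The table deposited by the authors holds raw counts per gene. The build mm10 and the tools featureCounts, Subread, STAR and edgeR are named, per the submitters' processing notes, and strandedness is not given in the sources used here. Genes were tested on these counts with edgeR 4.0.16 (R 4.3.3) by its quasi-likelihood test, with TMM scaling, a low-count filter that kept 23360 of 55357 genes, and 1 fit of all 60 libraries by group (45 residual degrees of freedom). The Benjamini-Hochberg adjustment covered all 23360 genes, and an adjusted p below 0.05 counted as a call; SE came from the test statistic. CPM and RPKM used TMM-scaled library sizes and the deposited gene lengths. Library totals ran between 55411864 and 113917959. Libraries of a group shared at most 0.306% of their counts above 100, so none was treated as a duplicate.

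The members and gene lists were chosen with earlier results of these data known. Named genes were the members, the family, the called genes of smallest p in each list (up to 4 a comparison), any gene a sentence turns on, and the 10 genes most like Npy1r. Gcgr, Adcy4, Anpep, Sstr5 and Chga were named after their values were seen. Alternatives were DESeq2 1.42.0 size factors and its Wald test, no filter, a replicate block, only the groups compared, the newer quasi-likelihood method and libraries left out; halved counts and the contrasts of distal colon with small intestinal parts were added after seeing the data. The deposited batch label equals the replicate number in all 60 libraries, which is where the pairing comes from. Deviations of same-numbered libraries correlated by -0.201 on average between GFP-high and GFP-negative cells of the proximal colon, by 0.012 in the distal colon and by 0.433 between distal and proximal GFP-high cells (8000 genes). The average was 0.513 between distal and proximal colon GFP-negative cells. In the distal colon it was 0.435 between GFP-high and GFP-intermediate cells and 0.329 between GFP-intermediate and GFP-negative cells. The main fit does not use this pairing, and the replicate block does. On simulated counts for distal against proximal colon GFP-high cells (23360 genes), 69% of changes of log2 size 1 and 94% of size 2 were recovered, with 13 false calls, 7.39% of all calls. These counts were drawn independently for each library at the fitted spread, without an effect shared by same-numbered libraries. The rates belong to that setting and were not measured for the real libraries. Coordinates are from GENCODE M21 on GRCm38, matched by gene name and ID without version. A marker gene is not reported here.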

Additional observations from a re-analysis of the deposited data

Results flagged for a closer look

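In 44 groups of 4 libraries the highest or lowest value of Npy1r, Npy2r or Pyy was checked by Dixon's ratio at its 95% critical value, which chance passes in about 1 group of 20, and 7 libraries stood apart. Npy1r was 20 CPM in proximal colon GFP-negative replicate 3, where the other libraries had 7.58 to 9.17 CPM, and 0.932 CPM in distal small intestinal GFP-negative replicate 4, where the others had 0.285 to 0.37 CPM. Pyy was 8.83 CPM in proximal colon GFP-negative replicate 4, where the others had 25.4 to 25.6 CPM. The other 4 were single libraries with a few counts in groups otherwise at 0: Npy1r at 0.0448 CPM in middle small intestinal GFP-high replicate 3 and 0.0286 CPM in proximal small intestinal GFP-high replicate 2, and Npy2r at 0.0569 and 0.0785 CPM in replicate 2 of distal and proximal small intestinal GFP-negative cells. In such groups the ratio is 1.000 whatever the count, so these 4 passed by construction. The rate of 1 group in 20 does not apply to them.

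The difference of GFP-high from GFP-negative cells depended on the gut part in these tests. Between distal and proximal colon it differed by 3.33 for Npy1r and by 4.89 for Glp1r on the log2 scale. Between the distal colon and the distal, middle and proximal small intestine it differed by 5.47, 6.81 and 6.46 for Npy1r, by -6.14, -4.12 and -5.17 for Npy2r and by 2.35, 2.38 and 2.53 for Pyy. The 9 small intestinal values come from tests added after the data had been seen, with adjusted p from 4.56e-06 to 0.0429.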

How the results depend on the processing

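None of the 18 Npy1r comparisons reversed under any alternative run. Of their alternatives 264 kept the outcome, called or not called, 13 gained a call and 7 lost one. Alternatives without an adjusted p were left out. This left 6 settings in place of 7 for GFP-high against GFP-negative cells of the proximal small intestine and for distal against proximal small intestinal GFP-high cells. GFP-high against GFP-negative cells of the proximal colon, not called at first, was called at -1.33 with DESeq2 size factors, -1.31 with the replicate block, -1.27 with the newer quasi-likelihood method and -1.21 with halved counts, and ran between -1.54 and -0.83 with libraries left out. In the distal colon GFP-high against GFP-intermediate was called at 0.84 with only the groups compared, and GFP-intermediate against GFP-negative at 1.24 with those groups, 1.24 with the newer method and 1.25 with halved counts. The proximal small intestine lost its call with the newer method (-4.32), and the interaction in the DESeq2 Wald test (3.34). With libraries left out the interaction ran between 2.89 and 3.62, GFP-intermediate against GFP-negative cells of the proximal colon between -2.31 and -1.54, and distal against proximal small intestinal GFP-negative cells between 1.02 and 2.48. The replicate block changed the call or sign of 3 of 54 results for Npy1r, Npy2r and Pyy: the one above, Npy2r in GFP-intermediate against GFP-negative cells of the proximal colon (1.95) and Npy2r in GFP-high against GFP-intermediate cells there (-0.0316), which was never called. Other values that changed sign with libraries left out were not called: Npy2r between -0.24 and 0.23 in that comparison, between -0.21 and 0.58 for GFP-intermediate against GFP-negative cells of the distal colon, and between -0.33 and 0.0000 for distal against proximal small intestinal GFP-negative cells; Pyy between -0.37 and 0.96 for GFP-high against GFP-intermediate cells of the proximal and between -0.025 and 0.39 of the distal colon, and between -0.20 and 1.01 for the interaction; and Glp1r between -1.03 and 0.0114 for GFP-high against GFP-negative cells of the distal colon. The cause was not tested.

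Counts of called genes moved as well. GFP-high against GFP-intermediate cells gave 10 genes in the proximal colon, against 72 in the DESeq2 Wald test, 19 with the block, 4 with halved counts and 0 with only the groups compared, and 422 in the distal colon, against 1845, 862, 711 with the newer method, 200 without a filter and 3433 with only the groups compared. Without the libraries numbered 3 these counts were 0 and 1, and without those numbered 4 they were 1216 and 2216. With only the groups compared the proximal colon GFP-high against GFP-negative count was 2899 in place of 5912, distal against proximal colon 3736 in place of 1715 (GFP-intermediate) and 1709 in place of 3168 (GFP-negative), the small intestinal counts 4996 in place of 2759 (GFP-high) and 1080 in place of 3636 (GFP-negative), and the interaction 52 in place of 144 (275 in the Wald test). The small intestinal Npy1r values of GFP-high cells, and most or all values of Npy5r and Npy4r, lie at or near the floor of 3 counts per library, so differences among such values are not detectable at this depth.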
